A study of Mus musculus with 9 samples.

Results

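Amino acid transporters whose genes are linked to the transcription factor ATF4 were followed in mouse dorsal root ganglia (DRG) after a sciatic nerve lesion. The set holds 10 solute carrier genes, namely the cationic amino acid transporters Slc7a1, Slc7a2 and Slc7a3, the light chains Slc7a5 and Slc7a11 with their shared heavy chain Slc3a2, the neutral amino acid transporters Slc1a4 and Slc1a5, the glycine transporter Slc6a9 and the glutamine and alanine transporter Slc38a2. Probes were chosen by gene name, older symbol or transcript identifier alone, which gave 18 of the 41174 probes on the array. The study asked which stress pathways neurons engage after axonal injury. Both groups were ganglia of lumbar levels 3 and 4 from adult mice, and every sample carries the labels cre.neg for Cre and jun.wt for genotype. The 5 injured samples were taken 3 days after transection of the sciatic nerve, and the 4 uninjured samples are labelled control. The labels do not say whether an array held 1 animal or a pool, nor the age or sex of the mice, so p-values measure the spread between arrays. Each array compared the ganglion RNA in the Cy5 channel with a universal mouse reference RNA in the Cy3 channel, with no dye swap, and values are given as log2(Cy5/Cy3), here called the log2 ratio.

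The integrated stress response slows general protein synthesis and favours translation of ATF4, which enters the nucleus and activates genes for amino acid uptake, amino acid synthesis and redox balance. Many of its target genes carry a C/EBP-ATF response element, a composite site bound by ATF4 together with a partner of the C/EBP family. Sensory neurons whose axons are cut restart growth programmes that need new protein. Amino acid transporters of the SLC7 family include carriers that work alone, such as those for arginine and lysine, and light chains that reach the cell surface only when joined to the heavy chain encoded by Slc3a2.

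Promoters of 6 of the 10 genes, with 9 start sites, were in the RefSeq promoter table (build GRCm38.p6). Slc7a2, Slc7a3, Slc7a5 and Slc1a5 had none there and were not searched. The core of the response element, TGATGNAA, was searched on both strands from 250 bases before to 50 bases after each start. Of 32851 promoters of the same length, 3.97% held at least 1 match and 0.07% held at least 2. Among the transporters, Slc7a11 held 2 matches, Slc1a4 held 1, and the windows of Slc3a2, Slc38a2, Slc6a9 and Slc7a1 held none of these letters. The Slc7a11 matches lie 66 to 59 and 47 to 40 bases before the start, on opposite strands, and the Slc1a4 match runs across the start, from 4 bases before it to base 4 of the transcript. A match is a description of the sequence and not a bound site. The promoters that hold them are shown in transcript direction with the matches in capitals, Slc7a11 at chr3:50443614-50443863 and Slc1a4 at chr11:20332710-20332963, both on the minus strand.
Slc7a11: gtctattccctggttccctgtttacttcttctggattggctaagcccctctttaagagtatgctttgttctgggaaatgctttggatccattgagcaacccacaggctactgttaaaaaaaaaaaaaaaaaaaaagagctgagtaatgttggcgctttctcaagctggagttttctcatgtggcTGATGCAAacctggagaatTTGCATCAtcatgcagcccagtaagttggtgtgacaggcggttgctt
Slc1a4: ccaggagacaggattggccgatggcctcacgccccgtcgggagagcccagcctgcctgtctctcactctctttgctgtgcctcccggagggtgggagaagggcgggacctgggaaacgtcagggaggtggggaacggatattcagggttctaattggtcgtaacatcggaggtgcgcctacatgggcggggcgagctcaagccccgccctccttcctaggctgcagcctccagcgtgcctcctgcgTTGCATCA

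Across the arrays, median Cy5 signal was 156 to 238 intensity units, with local background not subtracted. Of the spots, 71.0% to 78.9% were well above background in Cy5. Injured array 5 had the lowest median. All 12 sensory neuron markers were well above background on all 9 arrays. Of these, Ret was called higher (0.28) and Isl1 (-0.49) and Scn9a (-0.54) lower, 25% beside 24.9% of all genes called. Among 6 satellite glia markers, the brightest probe of Glul was called higher (0.78) and the other 5 were not called. The skeletal muscle markers, of which 5 of 6 were tested, were on average 1.81 (log2) above the uninjured mean on injured array 2 and 3.31 above it on injured array 4, against -0.11 to 0.31 on the other injured arrays. The red blood cell markers, of which 4 of 5 were tested, were raised by 0.68 to 1.57 on injured arrays 2, 4 and 5. The 10 macrophage markers were raised by 0.95 to 1.16 on injured arrays 2 and 5, and lay at 0.03, 0.33 and 0.44 on injured arrays 1, 3 and 4. Aif1 and Itgam, 2 of the macrophage markers, were called higher over the whole injured group (a second Itgam probe was not called). Over the uninjured arrays the muscle, red blood cell and macrophage lists stayed between -0.42 and 0.34. The 5 fibroblast markers varied more there, from -0.59 to 0.53, and lay from -0.055 to 0.76 on the injured arrays. The 7 myelinating Schwann cell markers lay from -0.45 to 0.34 and from -0.26 to 0.53, and no marker of either list was called. Tek (0.47) of 7 endothelial and Birc5 (0.36) of 6 dividing cell markers were called higher, 14.3% and 16.7% beside 24.9% of all genes. Values with injured arrays 1 and 3 alone stand beside the transporters whose call they end. In bulk tissue, fewer cells of a type and less RNA per cell cannot be told apart, and the same holds for more.

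Of the 10 genes, 9 had a probe that passed the filter on dim probes (Cy5 well above background on at least 4 arrays), and 5 of these 9 rose after nerve injury at an adjusted p under 0.05 in limma's moderated test on the brightest probe, while none fell (at an unadjusted p under 0.05 in limma, Slc7a2 alone was lower). Over all 20898 genes tested in the same way, 11.2% were called higher and 13.7% lower, 24.9% in all. The genes that rose were Slc7a3, Slc1a4, Slc3a2, Slc6a9 and Slc7a5. Slc38a2, Slc1a5, Slc7a1 and Slc7a2 were not called, and Slc7a11 could not be tested because its probes were dim. Among all 14 tested probes of the set, 8 were called higher and none lower, beside 10.5% called higher, 13.0% lower and 23.5% in all over 31186 probes. The median log2 fold change of the 9 brightest probes was 0.33, beside 0.0011 over the brightest probes of all genes, of which the 5th and 95th percentiles were -0.46 and 0.51. The groups of arrays did not overlap for 6 of the 9 genes (the 5 that rose and Slc7a2, which was lower) and 9 of the 14 probes, beside 23.9% of all genes and 22.6% of all probes.

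**Figure D1:**
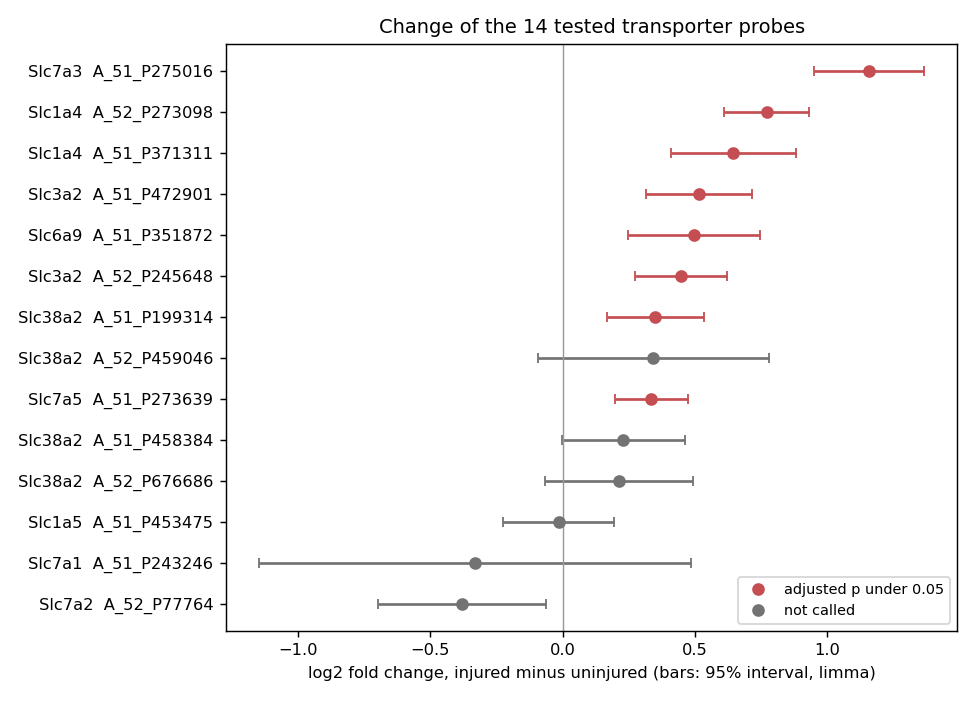
Log2 fold change, injured minus uninjured, of the 14 tested transporter probes, with bars for the 95% interval of limma's fit, not adjusted for the number of probes. The 8 probes in red were called higher at an adjusted p under 0.05, from Slc7a3 at 1.16 down to Slc7a5 at 0.33, and the grey probes were not called.

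Slc7a3, which encodes the cationic amino acid transporter CAT-3 that carries arginine and lysine and is known from neurons, rose the most. Its probe A_51_P275016 (mm7, chrX:96406676-96406735) gave log2 ratios of -0.21, -0.54, -0.66 and -0.40 on uninjured arrays 1 to 4 and of 0.71, 0.81, 0.69, 0.79 and 0.55 on injured arrays 1 to 5. All 5 injured arrays were above every uninjured array, and the gap between the groups was wider than the range within either. Uninjured ganglia averaged -0.45 ± 0.19 (SD, n = 4) and injured ganglia 0.71 ± 0.10 (SD, n = 5). The log2 fold change was 1.16 ± 0.094 (SE), or 2.23-fold, with an adjusted p of 1.41e-05 in limma. A two-sided exact permutation test, which takes every way to divide the 9 arrays into 4 and 5, gave p = 0.00794, its smallest possible value. Injured array 5, which held the lowest of the injured values, also had the dimmest Cy5 channel.

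Slc1a4 encodes ASCT1, a sodium-dependent carrier of alanine, serine and cysteine, and was the gene with the second largest rise. The brighter of its probes, A_52_P273098 (mm7, chr11:20254539-20254598), read 0.60, 0.64, 0.49 and 0.67 on the uninjured arrays and 1.52, 1.41, 1.32, 1.40 and 1.21 on the injured arrays. Uninjured and injured arrays were fully apart. The log2 fold change was 0.77 ± 0.073 (SE), or 1.71-fold, with an adjusted p of 4.17e-05 in limma and 0.00794 in the exact permutation test. The second probe, A_51_P371311 (mm7, chr11:20255454-20255513), lay at -0.42, -0.08, -0.44 and -0.30 without injury and at 0.54, 0.49, 0.14, 0.32 and 0.17 after it. Its groups were also apart, though by a narrower margin, and its change was 0.64 ± 0.11 (SE; adjusted p = 0.00157 in limma). Both probes of this gene moved the same way. Whether the match in its promoter has a part in the rise was not tested.

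The paralog Slc1a5 encodes ASCT2, a carrier of glutamine and other neutral amino acids, and did not move with Slc1a4. Its probe A_51_P453475 (mm7, chr7:14562181-14562240) read -1.02, -1.14, -0.94 and -0.85 on the uninjured arrays and -1.12, -1.03, -1.13, -1.02 and -0.72 on the injured arrays. The groups overlapped throughout, and injured array 5 was the highest of all 9. The difference was -0.015 ± 0.095 (SE; 95% interval -0.23 to 0.19; adjusted p = 0.933 in limma), so a change of the size seen for Slc1a4 lies outside the interval. Tested directly on each array, the change of Slc1a4 exceeded that of Slc1a5 by 0.79 (95% interval 0.43 to 1.14; exact permutation p = 0.0159, adjusted p = 0.0199 over the 5 pairs of related transporters that could be tested).

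**Figure D2:**
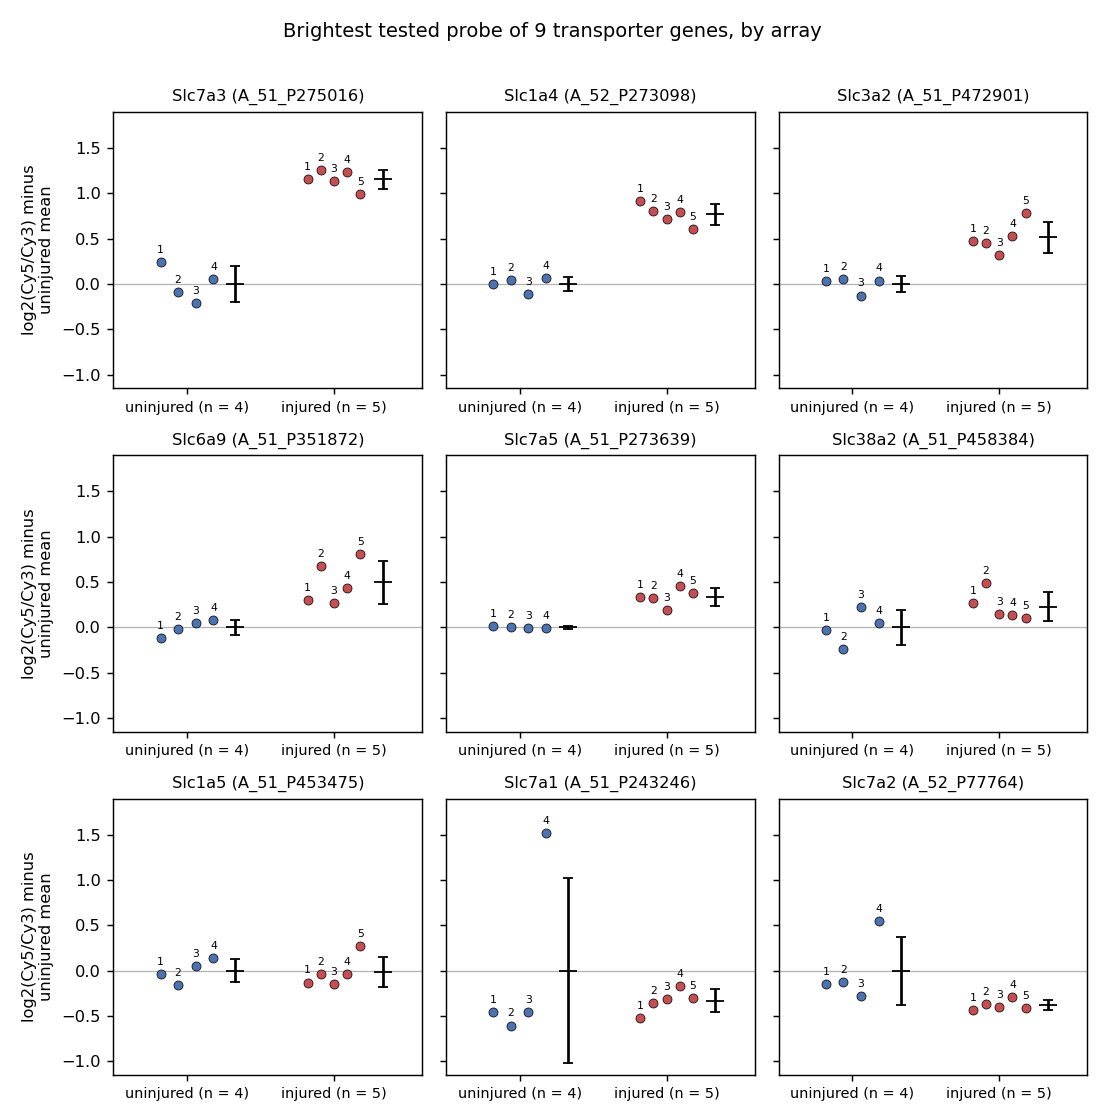
Log2 ratio of the brightest tested probe of 9 transporter genes on each array, relative to the mean of the uninjured arrays, with the array number above each point and mean ± SD beside each group (4 uninjured and 5 injured arrays). Injured and uninjured arrays are apart in the panels of Slc7a3, Slc1a4, Slc3a2, Slc6a9 and Slc7a5, with the injured arrays above, and of Slc7a2, with the injured arrays below, and uninjured array 4 stands alone above the rest for Slc7a1 and Slc7a2.

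Slc3a2 encodes 4F2hc (CD98), the heavy chain that several SLC7 light chains need. Probe A_51_P472901 (mm7, chr19:8387861-8387920) read -0.99, -0.96, -1.14 and -0.98 on the uninjured arrays and -0.53, -0.56, -0.70, -0.48 and -0.23 on the injured arrays. The highest injured value was again on array 5, and no injured array reached down to the uninjured ones. The rise was 0.51 ± 0.091 (SE), or 1.43-fold (adjusted p = 0.00223 in limma, exact permutation p = 0.00794). The second probe, A_52_P245648 (mm7, chr19:8393855-8393914), lay from -1.13 to -0.90 in uninjured and from -0.72 to -0.43 in injured ganglia, and rose by 0.45 ± 0.078 (SE; adjusted p = 0.00224 in limma). Both probes gave nearly the same change, the first at Cy5 signals of 18607 to 27552 and the second at 339 to 613 intensity units.

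Slc7a5 encodes LAT1, the light chain that exchanges leucine and other large neutral amino acids in a dimer with the Slc3a2 product. Its probe A_51_P273639 (mm7, chr8:120523247-120523306) held a narrow range without injury, at -2.06, -2.07, -2.08 and -2.09, and read -1.74, -1.75, -1.89, -1.62 and -1.69 after it. The injured arrays were all above the uninjured ones, and the lowest of them was array 3. The rise was 0.33 ± 0.063 (SE), or 1.26-fold (adjusted p = 0.00324 in limma, exact permutation p = 0.00794), the smallest among the brightest probes called. It was no longer called with each array centred on its median in place of loess (0.26, adjusted p = 0.177 in limma) or with injured arrays 1 and 3 alone (0.26, adjusted p = 0.065). On the same arrays the rise of Slc7a5 was smaller than that of its heavy chain by 0.18 (95% interval of the difference -0.36 to -0.0021; exact permutation p = 0.0159, adjusted p = 0.0199). That difference did not hold up throughout. It was -0.15 with all spots kept and -0.12 with median centring, with adjusted exact permutation p of 0.159 and 0.149, and leaving out any 1 of the 4 uninjured arrays ended the call (-0.20 to -0.14, adjusted exact permutation p = 0.0536 to 0.0893).

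Slc7a11 encodes xCT, the light chain that imports cystine in exchange for glutamate and also pairs with the Slc3a2 product. All 4 of its probes were dim in the ganglia, with Cy5 signals of -3.9 to 65.4 intensity units above local background over the 9 arrays. Probe A_52_P368057 (mm7, chr3:50490342-50490401) was well above background on 1 of 4 uninjured and 2 of 5 injured arrays, with log2 ratios of -1.71, -1.70, -1.40 and -1.69 and of -1.69, -1.37, -1.54, -1.51 and -1.28. These values overlapped. Probes A_52_P298824 (mm7, chr3:50567425-50567484), A_52_P663446 (mm7, chr3:50490980-50491039) and A_51_P129502 (mm7, chr3:50496689-50496748) were not well above background in Cy5 on any array, so no fold change is given. In the reference RNA the same 4 probes were well above background on all 9 arrays. In both groups, most arrays gave only an upper bound for the gene whose promoter holds the pair of matches.

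Slc6a9 encodes GlyT1, the sodium- and chloride-dependent glycine transporter of glia and of some neurons. Probe A_51_P351872 (mm7, chr4:117245669-117245728) read -2.70, -2.60, -2.54 and -2.50 on the uninjured arrays and -2.29, -1.91, -2.32, -2.16 and -1.78 on the injured arrays. The groups were apart, but the injured arrays spread more, with arrays 2 and 5 highest. The rise was 0.50 ± 0.11 (SE), or 1.41-fold (adjusted p = 0.00928 in limma, exact permutation p = 0.0159). Arrays 2 and 5 were also those with the highest macrophage markers, and arrays 2, 4 and 5 those with raised red blood cell markers. With injured arrays 1, 3 and 5 alone, a choice made after seeing the data, the rise was 0.46 (adjusted p = 0.0565 in limma) and with arrays 1 and 3 alone 0.28 (adjusted p = 0.0646), and was not called in either. The part of other cell types in this change was not tested.

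Slc38a2 encodes SNAT2, a sodium-coupled carrier of glutamine, alanine and other small neutral amino acids, and its 4 probes did not give 1 answer. The brightest, A_51_P458384 (mm7, chr15:96689459-96689518), read -0.49, -0.69, -0.23 and -0.40 on the uninjured arrays and -0.19, 0.03, -0.31, -0.31 and -0.35 on the injured arrays. The groups overlapped, and the difference of 0.23 ± 0.11 (SE; 95% interval -0.0038 to 0.46) was not called (adjusted p = 0.149 in limma, exact permutation p = 0.0873), and it was 0.15 without uninjured array 2. Probe A_52_P676686 (mm7, chr15:96691104-96691163) differed by 0.21 ± 0.13 (SE; adjusted p = 0.263 in limma), and of its injured values 4 lay from 0.38 to 0.49 with array 5 alone at 1.01. Without that array the difference was 0.094, and with injured arrays 1 and 3 alone 0.067.

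The other pair of Slc38a2 probes is listed under a cDNA in place of the RefSeq transcript. This pair lies at higher coordinates than the first pair, all on the minus strand, and its place within the gene was not determined. Probe A_51_P199314 (mm7, chr15:96698390-96698449) read -0.0014, 0.05, 0.28 and 0.12 without injury and 0.51, 0.43, 0.33, 0.38 and 0.66 after it. Here the groups were apart and the rise of 0.35 ± 0.083 (SE), or 1.27-fold, was called (adjusted p = 0.0117 in limma, exact permutation p = 0.00794). It was not called with median centring (0.28, adjusted p = 0.128 in limma), with slide as a fixed block (0.54, adjusted p = 0.0582) or with injured arrays 1 and 3 alone (0.31, adjusted p = 0.095). Probe A_52_P459046 (mm7, chr15:96699481-96699540) gave 0.34 ± 0.20 (SE; adjusted p = 0.249 in limma), with uninjured arrays 1 and 2 at -0.90 and -0.89 and arrays 3 and 4 at -0.22 and -0.16. That difference was 0.22 without injured array 5, 0.22 without uninjured array 1, 0.23 without uninjured array 2 and 0.12 with injured arrays 1 and 3 alone. All 4 point estimates for the gene were above 0, and 1 of the 4 was called.

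The ubiquitous arginine transporter Slc7a1 (CAT-1) and its relative Slc7a2 (CAT-2) were not called, unlike Slc7a3. The Slc7a1 probe A_51_P243246 (mm7, chr5:147226953-147227012) read 0.19, 0.04, 0.19 and 2.18 on the uninjured arrays and 0.13, 0.29, 0.34, 0.48 and 0.35 on the injured arrays. Uninjured array 4 stood far above all others. Its Cy5 signal was 875 intensity units, against 147 to 191 on the other uninjured arrays, while its Cy3 signal of 86.2 lay inside the range of the other arrays (59.3 to 104). With it the difference was -0.33 ± 0.37 (SE; adjusted p = 0.571 in limma), and without it the sign turned, to 0.18 (adjusted p = 0.19), so no direction can be given for this gene.

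The Slc7a2 probe A_52_P77764 (mm7, chr8:39701203-39701262) read 0.53, 0.55, 0.40 and 1.23 on the uninjured arrays and 0.24, 0.31, 0.28, 0.39 and 0.27 on the injured arrays. All injured arrays were below all uninjured ones, the only tested probe of the set for which this held, and uninjured array 4 was again the highest. The difference of -0.38 ± 0.14 (SE; 1.30-fold lower) was not called in limma (adjusted p = 0.0813), while the exact permutation p for this probe alone was 0.00794. Without uninjured array 4 the difference was -0.20. Both probes were dim, at Cy5 signals of 147 to 271 intensity units for Slc7a1 on the arrays other than uninjured array 4 and of 72.5 to 270 for Slc7a2 on all 9.

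The differences within the cationic transporters were tested on each array. The change of Slc7a3 exceeded that of Slc7a2 by 1.54 (the difference Slc7a2 minus Slc7a3 was -1.54 ± 0.17, SE) and that of Slc7a1 by 1.49 (Slc7a1 minus Slc7a3 was -1.49 ± 0.45, SE), each with an exact permutation p of 0.00794 and an adjusted p of 0.0198 over the 5 pairs. Without uninjured array 4 the second difference was -0.999, still called. Slc7a1 and Slc7a2 did not differ from each other beyond their spread (0.048, 95% interval -0.64 to 0.74, exact permutation p = 0.921), with uninjured array 4 included. Without that array the difference was 0.37 with an adjusted p of 0.0223 in the exact permutation test. The pair of Slc7a11 and Slc3a2, the sixth listed, was not tested because Slc7a11 was dim.

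**Figure D3:**
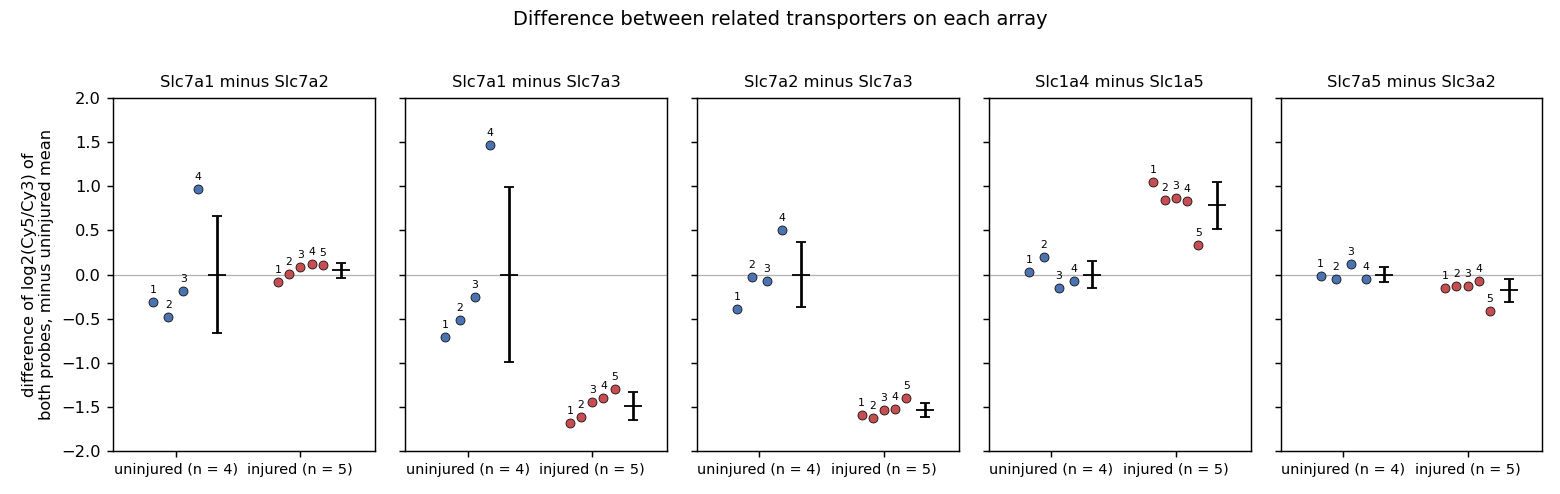
Difference between the log2 ratios of 2 related transporters on each array, relative to the uninjured mean, with the array number above each point and mean ± SD beside each group (4 uninjured and 5 injured arrays). Slc7a1 and Slc7a2 fell relative to Slc7a3 on all injured arrays, Slc1a4 rose relative to Slc1a5, and the gap between Slc7a5 and Slc3a2 moved by -0.18.

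The order of the changes on the brightest probes was Slc7a3, Slc1a4, Slc3a2, Slc6a9, Slc7a5, Slc38a2, Slc1a5, Slc7a1 and Slc7a2. Neighbours in this order other than the tested pairs were not compared with a test, and their 95% intervals overlapped in the plot of changes by probe except between Slc7a3 and Slc1a4. The arrays did not act alike on the set. Injured array 5 was the highest injured array for 7 of the 14 tested probes, those of Slc3a2, Slc6a9, Slc1a5 and 3 of Slc38a2, and the lowest for 3, those of Slc7a3, the brighter Slc1a4 probe and the brightest Slc38a2 probe. Injured array 3 was the lowest injured array for 8 of the 14 and the highest for none. Uninjured array 4 was the highest uninjured array for 6 of the 14.

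The arrays lay on 3 slides, of which 1 held both groups (uninjured array 1 with injured arrays 1, 2 and 5). A fit with slide as a fixed block compares the groups within that slide alone, so that 1 uninjured array stands for its group and is assumed to vary like the arrays within all 3 slides, from which the spread was estimated. In this fit Slc7a3 rose by 0.89 (adjusted p = 0.0114 in limma) and the Slc1a4 probes by 0.78 and 0.82 (adjusted p = 0.0194 and 0.0429). Slc3a2 (0.54 and 0.43), Slc6a9 (0.71), Slc7a5 (0.33) and the Slc38a2 probe A_51_P199314 (0.54) kept their direction and were not called with this single uninjured array (adjusted p = 0.103, 0.155, 0.0679, 0.179 and 0.0582 in limma). The fit called 2 of the 9 genes, and over all probes 1505 in place of 7338. With a single uninjured array, these calls give no replicate check of the difference within the slide.

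**Figure D4:**
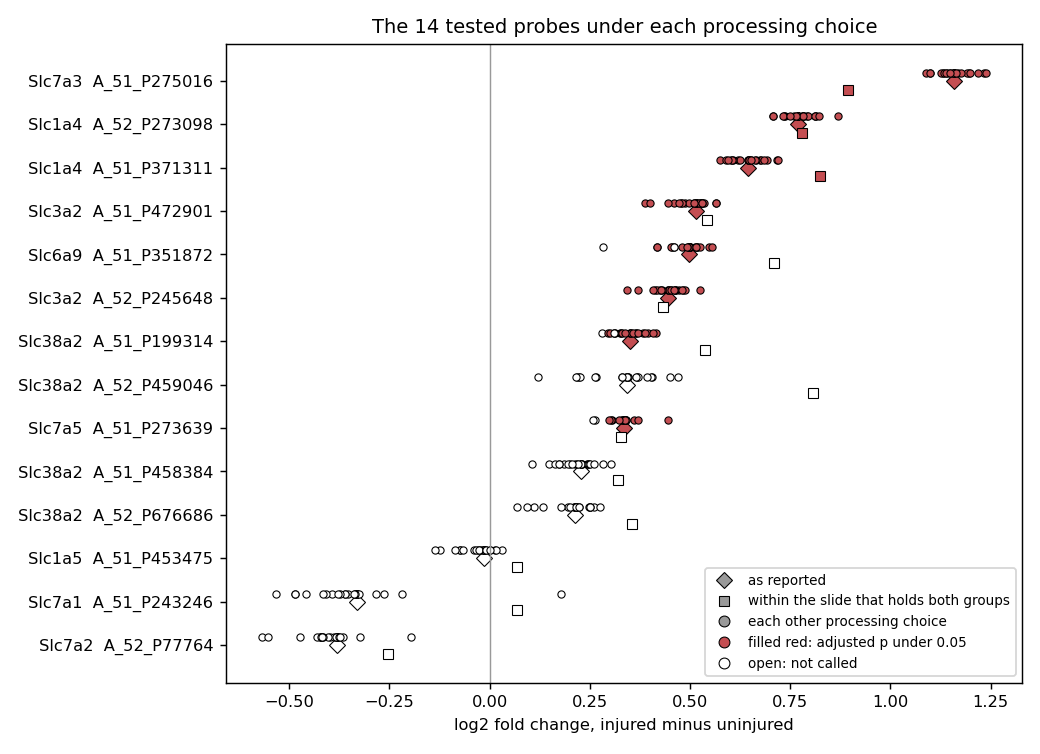
Log2 fold change of the 14 tested probes as reported (diamonds), within the slide that holds both groups (squares) and under each other processing choice, each array left out included (circles), filled red where the adjusted p was under 0.05. Slc7a3 ranged from 0.89 to 1.24 and both Slc1a4 probes stayed red throughout, while Slc1a5 and Slc7a1 fell on both sides of 0.

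The other amino acid transporters moved in both directions. Of 41 other transporters, 35 were tested, 5 rose and 8 fell on the brightest probe (37.1% called beside 24.9% of all genes), and their median log2 fold change was -0.012. The rises were led by Slc6a19, a neutral amino acid transporter best known from gut and kidney (0.85 ± 0.12, SE; adjusted p = 0.000516 in limma). Slc38a1, the glutamine carrier SNAT1 and a close relative of Slc38a2, rose by 0.69 ± 0.064 (SE; adjusted p = 3.67e-05 in limma). Slc7a6 (y+LAT2), a further light chain of the Slc3a2 product, rose by 0.52, the glial glutamate transporter Slc1a2 (GLT-1) by 0.51, and the other glial glutamate transporter Slc1a3 (GLAST) by 0.22. The falls were led by Slc1a1, the neuronal glutamate and cysteine transporter EAAC1, at -0.93 ± 0.090 (SE; adjusted p = 4.85e-05 in limma), followed by the lysosomal carrier Slc36a1 at -0.81, Slc7a4 at -0.69 and the brain proline transporter Slc6a7 at -0.62. Slc38a1 had 6 tested probes, and Slc7a6, Slc1a2, Slc1a3, Slc1a1, Slc36a1 and Slc6a7 had 2 each. Only the brightest is given here, so agreement between the probes of these genes is not shown.

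Slc38a1 separated the groups without overlap, from 0.28 to 0.50 on the uninjured and from 1.06 to 1.21 on the injured arrays. Slc1a1 did so in the other direction, from 2.37 to 2.42 without injury and from 1.18 to 1.67 after it. In the SLC1 family, Slc1a4, Slc1a2 and Slc1a3 were called higher on these arrays. Slc1a1 and Slc1a6 (-0.37) were called lower, and Slc1a5 was not called. The transporters Slc7a12, Slc7a13, Slc1a7, Slc6a5 and Slc6a18 had only dim probes, and no probe was named for Slc38a6.

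Atf4 itself rose, from log2 ratios of -1.85 to -1.67 on the uninjured arrays to -1.32 to -1.04 on the injured arrays (0.58 ± 0.072, SE; adjusted p = 0.000237 in limma). Of 16 genes made up of Atf4 and genes linked to it outside the transporters, 12 rose and none fell in limma on the brightest probe (1 was lower at an unadjusted p under 0.05, Vldlr), beside 11.2% called higher and 13.7% lower over all genes, with a median of 0.56. That list was chosen with results of these samples known and is no independent evidence of its direction. Its largest change was that of Chac1, a glutathione-degrading enzyme, at 1.98 ± 0.11 (SE; adjusted p = 6.35e-07 in limma), and its lowest that of the lipoprotein receptor Vldlr at -0.18, which was not called (adjusted p = 0.0852). A dimmer Vldlr probe, A_51_P500044, fell by 0.32 (adjusted p = 0.0184), so the count of genes that fell depends on the choice of the brightest probe. The rises of Slc7a3 and Slc1a4 lay within the range of this list and above its median, and those of Slc3a2, Slc6a9 and Slc7a5 were below its median.

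**Figure D5:**
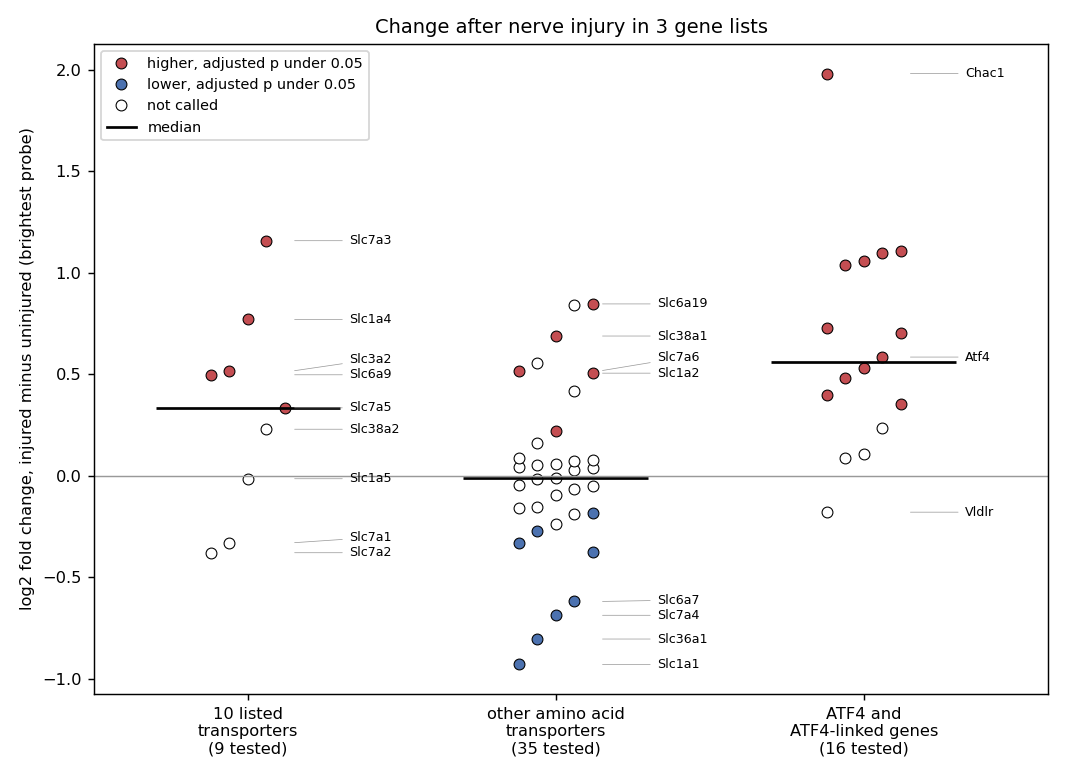
Log2 fold change of the brightest probe of each tested gene in the transporter set (9), the other amino acid transporters (35) and Atf4 with its linked genes (16), red where called higher, blue where called lower, open where not called, with a line at each median. The medians lie at 0.33, -0.012 and 0.56.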

How the data were processed

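RNA of L3 and L4 DRG was hybridised with a universal reference on 9 two-colour Agilent arrays. Time after injury is 3 days in the labels and methods, whereas the results text has an earlier time and L4 alone. Per the file headers, the deposited intensities are each spot's mean signal and the median of its surround, from Agilent Feature Extraction 10.5.1.1, and not normalized. Those files also hold log10 ratios that are, per the file headers, background-modelled and dye-normalized. The values processed by the authors are log2 ratios of Cy5 over Cy3, and in a regression of the values used here on them the slope was 1.00 to 1.01.

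Values were computed in R 4.3.3 with limma 3.58.1. Spots marked as non-uniform outliers were left out (2 to 26 of 43379 per array), normexp (offset 50) corrected the background, arrays were normalized by loess, and repeated spots of a probe were averaged. Of 41174 probes, 31186 had Cy5 well above background on at least 4 arrays and were tested with lmFit and eBayes, with Benjamini-Hochberg adjustment over all of them. A call is an adjusted p under 0.05. A gene was represented by its probe with the highest mean Cy5, and every transporter probe is reported. Probes were named by accession (22951), current symbol (6659), older name (3109) or name in the file (8455), and their coordinates are those of the files (mm7), for which no gene annotation was used. Related transporters were compared by a two-sided exact permutation test of the difference of their log2 ratios on each array, adjusted over 5 of 6 listed pairs. The number of arrays limits the precision of every value.

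The transporters, the pairs, the gene lists and the tests were chosen with earlier results of these data known. Named among the other transporters are the 4 largest rises and 4 largest falls called and any gene completing a count of 5 or fewer. Slc1a6 is named to complete the SLC1 family. In the ATF4-linked list, the highest and lowest change are named with Atf4. Alternatives changed the spots kept, background, ratio, normalization, channel, filter, slide, weights, probe choice, threshold and arrays. Scripts were tested on simulated data. Plots used matplotlib 3.10.9 in Python 3.11.15. The other experiments of the study were not analysed here.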

Additional observations from a re-analysis of the deposited data

Results flagged for a closer look

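Among the 28 groups of arrays examined (14 tested probes in 2 groups), 4 held an array that stood apart from the rest of its group by Dixon's criterion, where chance gives about 1 in 20. The Slc7a1 probe read 2.1753 on uninjured array 4, against 0.04 to 0.19 on the other uninjured arrays. The Slc38a2 probe A_52_P676686 read 1.0134 on injured array 5, against 0.38 to 0.49 on the other injured arrays. Slc1a5 read -0.7157 on injured array 5, where the other injured arrays lay between -1.13 and -1.02. The Slc3a2 probe A_51_P472901 read -1.1414 on uninjured array 3, below the other uninjured arrays at -0.99 to -0.96. Without the arrays concerned the differences were 0.18 for Slc7a1, 0.094 for Slc38a2 and -0.087 for Slc1a5, none of them called by limma, and 0.47 for Slc3a2, which was still called (adjusted p = 0.00975).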

How the results depend on the processing

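The rises of Slc7a3 (0.89 to 1.24) and of Slc1a4 (0.71 to 0.87 and 0.57 to 0.82 for its probes) were called under every alternative run, of which the fixed slide block rests on 1 uninjured array. No paired analysis was possible because replicate numbers are not given in the labels, which tie no sample to an animal. In its nerve crush experiments the study took control ganglia from the uninjured side of the same mice. Whether injured and uninjured arrays here share animals is not given, and the tests treat the arrays as independent. With the fixed slide block 1505 probes, 2 of the listed transporter genes, 4 other transporters and 7 ATF4-linked genes were called, Slc1a5 turned to 0.068 and Slc7a1 to 0.067. Asking for a change above 1.5-fold as well left 1627 probes, 2 listed transporters, 6 others and 7 ATF4-linked genes. Median centring left 3523 probes, and moved Slc7a5 minus Slc3a2 to -0.12, as keeping all spots moved it to -0.15, neither called. A random slide block gave 10340 probes and called Slc7a2 lower (-0.42, adjusted p = 0.0162 in limma). That fit estimated a correlation of -0.2 within slides. It thus treated arrays of the same slide as less alike than arrays of different slides. With the fixed slide block the Slc7a2 difference was -0.25. Chosen after seeing the data, injured arrays 1, 3 and 5 alone gave 4040 probes and 8 other transporters, and arrays 1 and 3 alone gave 3511 probes and 3 listed transporters. The cause of these shifts was not tested, beyond the fewer arrays. Leaving out each array in turn gave 5377 to 7481 probes, 5 listed transporters each time, 10 to 13 others and 12 to 13 ATF4-linked genes, and ranges of -0.087 to 0.032 for Slc1a5, -0.53 to 0.18 for Slc7a1, -0.11 to 0.37 for Slc7a1 minus Slc7a2 and -0.21 to -0.12 for Slc7a5 minus Slc3a2. Signal over background limits Slc7a11, and to a lesser degree Slc7a1 and Slc7a2.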
